A study of Mus musculus with 21 samples.

Results

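The p53 target genes described here are 10 named genes, Cdkn1a, Mdm2, Ccng1, Bax, Bbc3, Phlda3, Zmat3, Sesn2, Trp53inp1 and Ei24, out of 34369 genes with a summed expression value. They were taken by name, with no threshold on a measured value, but with earlier results of these data known. Counts and medians over the 10 genes or the other gene lists are therefore no independent test. RNA levels are given as TPM, a relative level per library that is corrected for transcript length. Binding is given as crosslinks, the nucleotides at which ultraviolet light joined RNA to the immunoprecipitated material.

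p53 is a transcription factor that accumulates after DNA damage and other stress and switches on genes that stop the cell cycle, promote cell death, repair DNA or adjust metabolism. One of its targets, Mdm2, encodes the ubiquitin ligase that removes p53, which closes a negative feedback loop. RBM10 is an RNA-binding protein that regulates splicing, largely through binding near splice sites.

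The samples were of 2 kinds of mouse cell. The md MEPA line is a mandibular line of the embryonic pharyngeal arch, from 11.5 d.p.c. embryos of CD1 females and an Immortomouse male. Cells were kept at 33 °C with 100 U/ml murine interferon, in all md groups alike. Immortomouse cells carry a temperature-sensitive large T antigen of simian virus under an interferon-inducible promoter. Large T binds and inactivates p53, so these conditions limit the md line as a model of p53 target genes. Nothing in the files measures large T or p53 protein. The md RNA groups were 4 Rbm10 knockout (KO) lines made with CRISPR/Cas9, carrying their deletion in exon 3 (KO1, KO2) or exon 9 (KO3, KO4), and 3 wild-type (WT) samples. The embryonic stem (ES) groups were 3 samples of the male, hemizygous Rbm10 gene trap line CSI176 and 3 of its parental line E14Tg2a.4, grown on gelatin in medium with LIF. The gene trap is 1 line. The iCLIP groups were 4 libraries with an anti-RBM10 antibody and 4 with rabbit IgG, all from md cells irradiated with 400 mJ/cm2 at 254 nm. The RBM10 and IgG libraries ran on separate lanes, so effects of the lane and of the antibody cannot be told apart. Nothing says that the WT md or the ES samples came from separate cultures, so the spread behind the p-values may be technical.

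Rbm10 itself stood at 23.2, 19.7, 7.20 and 3.49 TPM in KO1 to KO4 against 21.4, 23.2 and 23.7 TPM in WT md cells. The exon 3 clones lay near WT, and a TPM over whole transcripts does not measure a small deletion, so it checks nothing for them. In ES cells Rbm10 was at 3.63 to 4.27 TPM in the gene trap and at 32.2 to 33.5 TPM in the parental line. All 10 ES markers passed the filter in ES cells, with Pou5f1 at 553 to 683 TPM, and their sum was 33.7 to 54.2 TPM in md cells. Pou5f1 was at 0 there, while Klf4, at 21.3 to 48.5 TPM, and Sox2, at 3.25 to 15.3 TPM, were not. Of 10 md mesenchyme markers 5 passed the filter in md cells, among them Prrx1 at 47.3 to 90.2 TPM, while Hand2 and Barx1 were listed at 0 in every md library. In the correlation of log2 levels with their own group, the md clones stood at 0.939 to 0.952 and the WT md libraries at 0.993. Among ES libraries, gene trap replicate 1 (0.979) and parental replicate 3 (0.982) were the lowest of their groups, with the others at 0.983 in the gene trap and 0.987 in the parental line. The iCLIP libraries held 774816 to 2847066 crosslinks with the RBM10 antibody. With IgG they held 965090, 2214515, 103017 and 157986, so IgG replicates 3 and 4 were shallow.

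The sequences below are the ends of 5 introns of Mdm2 and Bax, the 2 genes with the densest windows of crosslinks with the RBM10 antibody among the 10. Each shows the last 110 bases of the intron and the first 10 bases of the exon, 5′ to 3′ on the strand of the gene, which is the minus strand of mm9 for both. Capitals mark bases with at least 3 crosslinks over the 4 RBM10 libraries. The Mdm2 stretches lie at chr10:117142276-117142395 (before exon 4), chr10:117138661-117138780 (before exon 6) and chr10:117128269-117128388 (before exon 11). Those of Bax lie at chr7:52721632-52721751 (before exon 2) and chr7:52717327-52717446 (before exon 6). Exons are numbered in Mdm2-001 and Bax-201, the transcripts with the longest coding sequence.
Mdm2 intron end before exon 4: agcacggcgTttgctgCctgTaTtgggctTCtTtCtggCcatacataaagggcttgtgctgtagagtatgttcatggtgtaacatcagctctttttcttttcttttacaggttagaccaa
Mdm2 intron end before exon 6: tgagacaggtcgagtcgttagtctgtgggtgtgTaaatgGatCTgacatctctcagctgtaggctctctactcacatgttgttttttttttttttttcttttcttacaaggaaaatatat
Mdm2 intron end before exon 11: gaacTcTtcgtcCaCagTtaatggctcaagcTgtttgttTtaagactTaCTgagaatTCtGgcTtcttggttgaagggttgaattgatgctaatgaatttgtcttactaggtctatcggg
Bax intron end before exon 2: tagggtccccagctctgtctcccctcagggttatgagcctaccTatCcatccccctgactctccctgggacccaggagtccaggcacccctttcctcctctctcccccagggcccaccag
Bax intron end before exon 6: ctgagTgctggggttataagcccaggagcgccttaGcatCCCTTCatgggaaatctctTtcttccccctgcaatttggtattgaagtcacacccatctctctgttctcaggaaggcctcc
In each stretch the intron ended in AG, and the capitals were mostly C and T (U in the RNA). The windows behind these stretches are described with the crosslinks.

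The first comparison asked how the RNA of these genes differed between Rbm10 KO and WT md cells. Cdkn1a, Mdm2 and Bax were higher in each of the 4 clones than in each WT sample, and none of the 10 genes passed the test. In bulk samples such as these, a change in the mix of cells and a change in RNA per cell cannot be told apart. Of the 12090 genes tested in md cells, 0.0165% (2 genes) were called by limma at a Benjamini-Hochberg adjusted p under 0.05, so the count of 0 of 10 is near the background. At an unadjusted p under 0.05 there were 829 genes, 3 of them among the 10. A gene higher in all clones than in all WT samples was found in 6.33% of the genes tested.

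Cdkn1a encodes p21, an inhibitor of cyclin-dependent kinases. It lay at chr17:29227924-29237667 on the plus strand and was at 13.6, 26.1, 18.02 and 18.7 TPM in KO1 to KO4 and at 8.37, 9.64 and 9.46 TPM in WT. The lowest clone, KO1, was still above the highest WT sample. The difference in log2(TPM + 1) was +0.95 (SE 0.20, limma adjusted p = 0.602).

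Mdm2, the ubiquitin ligase of p53, lay at chr10:117125944-117147814 on the minus strand. It was at 26.6, 33.3, 41.4 and 39.9 TPM in KO1 to KO4 and at 23.4, 24.4 and 25.9 TPM in WT. The exon 9 clones KO3 and KO4 were the highest and KO1 lay just above WT. The difference was +0.49 (SE 0.17, limma adjusted p = 0.672).

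Ccng1 encodes cyclin G1, which binds a phosphatase that acts on Mdm2, and lay at chr11:40562054-40568813 on the minus strand. It was at 38.5, 48.8, 61.3 and 50.3 TPM in KO1 to KO4 against 48.1, 45.7 and 48.4 TPM in WT, so the clones lay on both sides of the WT samples.

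Bax, which forms pores in the outer mitochondrial membrane during apoptosis, lay at chr7:52717065-52722268 on the minus strand. It had the highest level of the 10 genes in both cell types. In md cells it was at 153, 123, 139 and 136 TPM in KO1 to KO4 and at 118, 108 and 118 TPM in WT. The groups did not overlap, with a gap of a few TPM between KO2 and the highest WT samples. The difference was +0.26 (SE 0.11, limma adjusted p = 0.721).

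The other 4 genes tied to cell death or stress overlapped between clones and WT. Bbc3 encodes PUMA, a BH3-only activator of apoptosis, and lay at chr7:16894965-16903554 on the plus strand. It was at 15.5, 13.1, 10.6 and 15.7 TPM in KO1 to KO4 and at 12.8, 12.5 and 13.3 TPM in WT. Phlda3, a repressor of the kinase Akt, lay at chr1:137662696-137665713 on the plus strand, and was at 21.9, 33.4, 41.0 and 27.4 TPM in the clones against 30.2, 30.02 and 27.9 TPM in WT. KO3 was the highest and KO1 the lowest of all 7 libraries for Phlda3.

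Trp53inp1 encodes a stress-induced protein that promotes p53 activity and autophagy, and lay at chr4:11083578-11101526 on the plus strand. It was at 4.16, 1.15, 2.09 and 1.89 TPM in KO1 to KO4 and at 1.22, 0.81 and 1.07 TPM in WT. KO2 lay within WT and the other clones above it, with a difference of +0.64 (SE 0.29, limma adjusted p = 0.738). Ei24, a membrane protein of the endoplasmic reticulum with a role in autophagy, lay at chr9:36586740-36604938 on the minus strand. It overlaps Gm16881 on the opposite strand, and whether the RNA libraries kept strand is not stated. Ei24 varied little, at 38.8, 43.5, 39.4 and 38.9 TPM in the clones and 39.0, 39.9 and 39.3 TPM in WT.

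Sesn2 and Zmat3 serve metabolism and RNA. Sesn2, a leucine sensor that restrains mTORC1, lay at chr4:132047947-132066416 on the minus strand and overlaps the gene Gm12981 on the same strand. It was at 21.0, 14.0, 9.12 and 24.6 TPM in KO1 to KO4 and at 16.7, 15.4 and 17.0 TPM in WT. The clones spread far more widely than the WT samples, KO1 and KO4 above them and KO2 and KO3 below. Zmat3, a zinc finger RNA-binding protein, lay at chr3:32233718-32264600 on the minus strand and was at 5.34, 6.20, 7.20 and 6.23 TPM in the clones against 8.32, 5.94 and 7.47 TPM in WT.

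**Figure D1:**
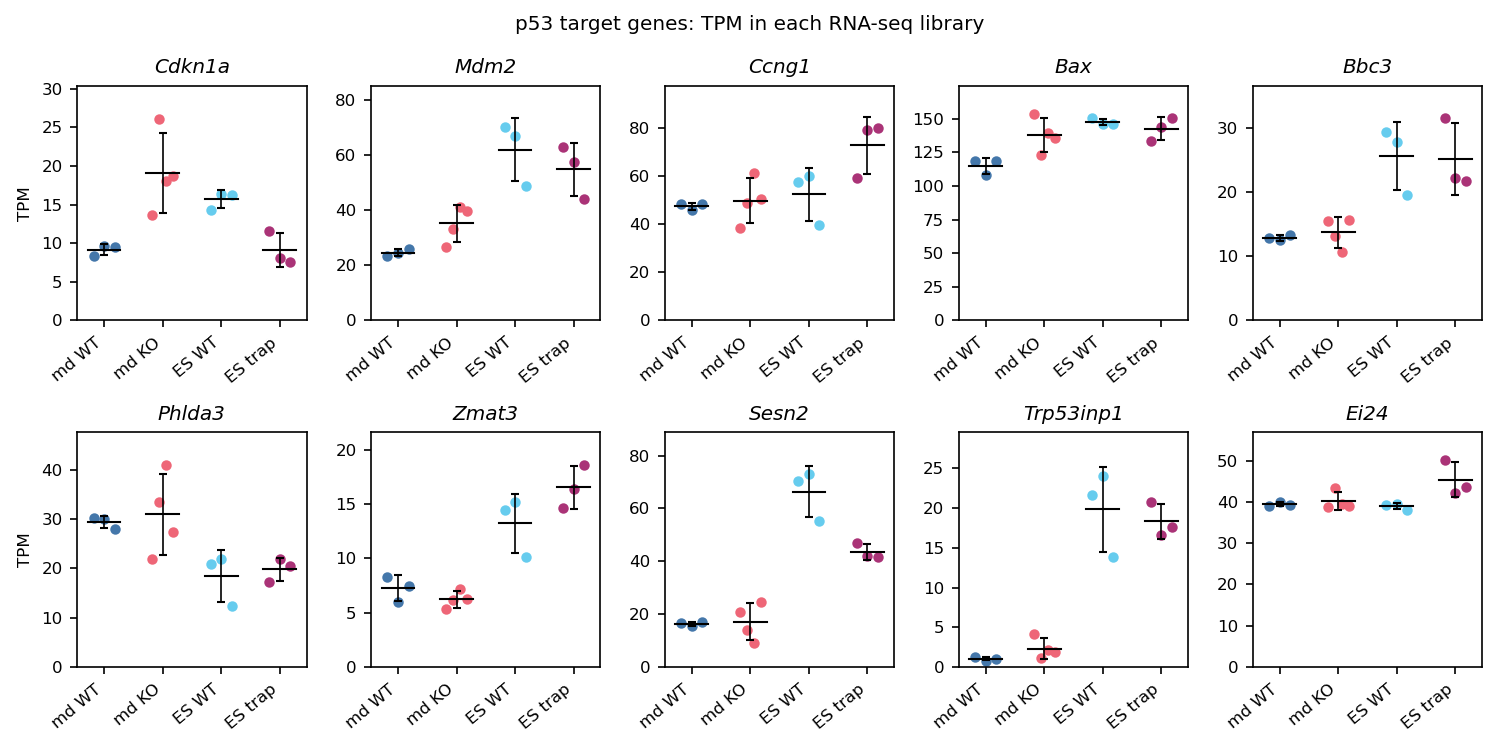
TPM (y axis, from 0) of each p53 target gene in every RNA-seq library. Points are libraries of WT and KO md cells and of the parental (ES WT) and gene trap (ES trap) lines, and lines with bars are the mean and SD over 3 samples, or 4 for md KO. In Cdkn1a the 4 clones sit at 13.6 to 26.1 TPM above the WT md samples, and the gene trap samples sit below the parental ones.

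Over the 10 genes in md cells, 8 had a difference above 0 and the median difference was +0.06. Over all genes tested in md cells 52.1% had a difference above 0, and the median was +0.01. Interferon response genes differed between libraries as well. The sum over 15 of them was 7143 to 10051 TPM in the clones and 5781 to 6897 TPM in WT, and all 14 that passed the filter had a difference above 0, with none called. By the mean of log2(TPM + 1) over the 15, KO1, KO2 and KO4 lay at 7.31 to 7.41 and WT at 6.53 to 6.71, while KO3 lay below WT at 6.48. Its part in the differences of Cdkn1a, Mdm2 and Bax was not tested.

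The 4 clones fall into 2 pairs by the exon deleted. Between exon 9 and exon 3 clones none of the 10 genes was called by limma, with 3.73% of genes called. The largest differences were +0.44 for Mdm2 (SE 0.14, adjusted p = 0.142) and +0.35 for Ccng1 (SE 0.16, adjusted p = 0.253), both higher in the exon 9 clones. Against WT none was called for the exon 3 clones (0.199% of genes called) or the exon 9 clones (0.629% called). Mdm2 differed by +0.70 (SE 0.13, adjusted p = 0.0905) in the exon 9 clones and by +0.27 (SE 0.13, adjusted p = 0.365) in the exon 3 clones. Cdkn1a differed by +0.93 and +0.97, so its difference was near equal in both pairs. When the exon 9 clones and WT were fitted without the exon 3 clones, a choice made after seeing the data, Cdkn1a (limma adjusted p = 0.0384) and Mdm2 (limma adjusted p = 0.0474) were called, 2 of the 136 genes (1.15%) called in that fit.

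The second comparison asked the same of the ES gene trap line against its parental line. Cdkn1a and Sesn2 were lower in the gene trap, and the other 8 genes did not pass the test. In ES cells 12.3% of 12860 genes were called, 7.53% higher and 4.73% lower, so 2 of 10 members called, both lower, stands beside a large background. Its balance turns with the scaling, from 968 higher and 608 lower calls to 719 and 838 with quantile normalisation and 622 and 938 with TMM factors. Groups that did not overlap were found in 23.8% of genes on the higher side, here Ei24, and in 14.5% on the lower side, here Cdkn1a and Sesn2.

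Cdkn1a was at 11.6, 8.10 and 7.58 TPM in the gene trap and at 14.3, 16.4 and 16.3 TPM in the parental line. Each gene trap sample was below each parental one. It fell by 0.74 on the log2(TPM + 1) scale (SE 0.16, limma adjusted p = 0.0352). The call was lost without gene trap replicate 2 (adjusted p = 0.130) or 3 (0.118), or without parental replicate 1 (0.118), 2 (0.129) or 3 (0.0576).

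Sesn2 was at 46.8, 42.1 and 41.5 TPM in the gene trap and at 70.4, 73.1 and 55.3 TPM in the parental line. The groups did not overlap, and parental replicate 3 was the lowest of its group. Sesn2 fell by 0.59 (SE 0.12, limma adjusted p = 0.0342). Its call was lost without gene trap replicate 2 (adjusted p = 0.125) or 3 (0.121), or parental replicate 1 (0.138) or 2 (0.127).

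Parental replicate 3 also had the lowest parental level of Mdm2, Ccng1, Bbc3, Zmat3, Trp53inp1, Phlda3 and Ei24. Mdm2 was at 62.9, 57.7 and 44.2 TPM in the gene trap and at 70.3, 67.0 and 48.9 TPM in the parental line. Ccng1 was at 59.1, 79.1 and 79.95 TPM against 57.3, 60.0 and 39.6 TPM, a difference of +0.48 (SE 0.19, limma adjusted p = 0.129). In both genes 1 library of a group stood far from the other two.

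Bax was at 134, 144 and 150.2 TPM in the gene trap and at 150.5, 146 and 146 TPM in the parental line. Bbc3 was at 31.6, 22.2 and 21.7 TPM against 29.4, 27.8 and 19.6 TPM. Neither gene separated the lines. The median difference of the 10 genes was -0.04, against +0.03 over all genes tested. Ei24 was at 50.1, 42.1 and 43.7 TPM against 39.2, 39.5 and 38.1 TPM, higher in each gene trap sample, with a difference of +0.21 (SE 0.09, limma adjusted p = 0.157).

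Phlda3 ranged from 17.2 to 21.8 TPM in the gene trap and from 12.4 to 21.9 TPM in the parental line. Zmat3 ranged from 14.6 to 18.6 against 10.1 to 15.2 TPM, and Trp53inp1 from 16.6 to 20.8 against 13.9 to 24.0 TPM. All 3 overlapped between the lines. With gene trap replicate 1 and parental replicate 3 both left out, chosen after seeing the data, limma called 5 of the 10 genes. These were Cdkn1a (adjusted p = 0.0033), Sesn2 (0.0019), Bbc3 (0.0096) and Trp53inp1 (0.0151), all lower, and Ccng1 (0.0055), higher. The total then was 5716 genes, 47.0% of those tested.

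The ES markers moved as well. Of 10, Nanog, Esrrb and Klf4 were lower and Utf1 higher in the gene trap, and the 10 summed to 4951 to 5229 TPM against 4875 to 5669 TPM. The 15 interferon response genes summed to 101 to 111 TPM in the gene trap and 76.9 to 99.3 TPM in the parental line. Of the 9 that passed the filter, Irf1 and Psmb8 were called higher. Over all genes tested 7.53% were called higher and 4.73% lower. The part of either list in the differences of Cdkn1a and Sesn2 was not tested.

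**Figure D2:**
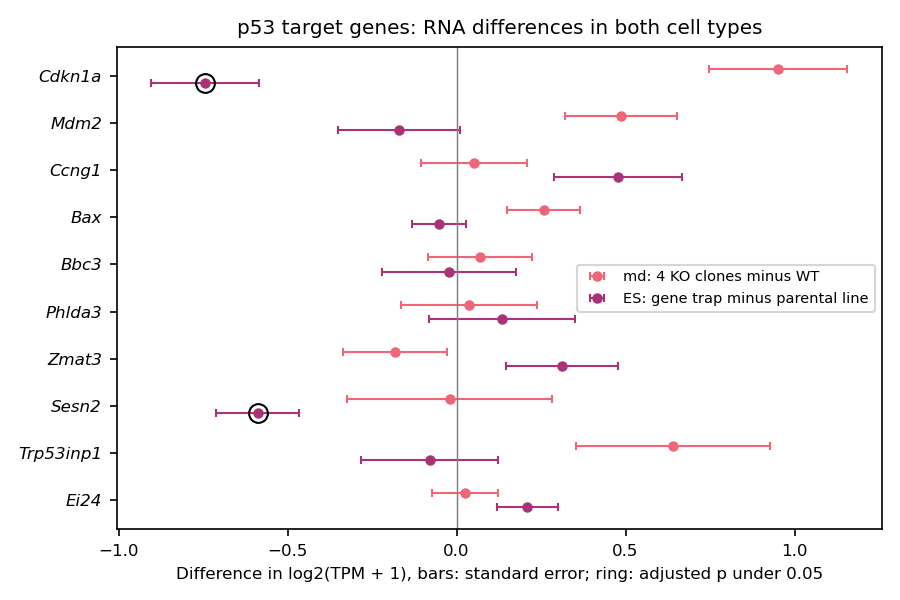
Difference in log2(TPM + 1), KO minus WT in md cells and gene trap minus parental line in ES cells (x axis), for each p53 target gene (y axis). Points are estimates from limma, bars are standard errors and rings mark an adjusted p under 0.05. Cdkn1a lies at +0.95 in md cells and at -0.74 in ES cells.

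The 2 differences of Cdkn1a had opposite signs, and their own difference was tested in 1 model. The md and ES comparisons differ in cell type, Rbm10 allele, culture conditions and clones against 1 line, and these cannot be told apart. The md difference exceeded the ES difference by 1.70 (SE 0.28, limma adjusted p = 0.0257). Cdkn1a was the 1 member called of 10, with 0.985% of 10558 genes called. The call was lost, with adjusted p from 0.0809 to 0.109, when any 1 of the 3 WT md samples, gene trap replicates 2 or 3, or parental replicates 1 or 2 was left out. Mdm2 (+0.66, SE 0.26, adjusted p = 0.172) and Bax (+0.31, SE 0.13, adjusted p = 0.204) came next on the same side. Zmat3 (-0.50, SE 0.23, adjusted p = 0.236) and Ccng1 (-0.43, SE 0.26, adjusted p = 0.358) were on the other.

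Levels in md and ES cells come from separate tables and were not tested against each other. Cdkn1a had its highest mean in md KO (19.1 ± 5.199 TPM, SD, n = 4), then the parental ES line (15.7 ± 1.16, n = 3), md WT (9.16 ± 0.686, n = 3) and the gene trap (9.09 ± 2.19, n = 3). The last pair differed by less than its spread. Sesn2 was highest in the parental ES line (66.3 ± 9.59 TPM), then the gene trap (43.5 ± 2.93), and the md groups (17.2 ± 6.93 in KO and 16.3 ± 0.847 in WT) did not differ beyond their spread. Trp53inp1 was at 19.8 ± 5.30 and 18.3 ± 2.19 TPM in the ES lines and at 2.32 ± 1.29 and 1.03 ± 0.210 TPM in md KO and WT. Mdm2, Bbc3 and Zmat3 also had higher means in both ES groups than in either md group. So did Ccng1 and Bax, though their md and ES libraries overlapped. Phlda3 was lower in both ES groups.

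The same genes were read by transcript, since RBM10 acts on splicing. The deposited tables held 30 of their 31 annotated transcripts. Of 15 member transcripts tested in md cells and 14 in ES cells none was called by limma, with 0.00% of 18725 and 0.0477% of 18872 transcripts called. The calls asked for an adjusted p under 0.05 and a difference of at least 10 points in the share of gene TPM.

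For Mdm2 the largest share belonged to Mdm2-001, the full coding transcript, at 39.4% ± 8.93 in md KO (SD, n = 4) and 38.8% ± 2.35 in WT (n = 3), and at 40.6% ± 6.56 and 42.4% ± 6.97 in the ES lines. In Bbc3 the largest share in md cells fell to the noncoding Bbc3-003 (64.6% ± 3.87 in KO and 57.0% ± 3.43 in WT, limma adjusted p = 0.565). In ES cells it fell to the coding Bbc3-001 (64.9% ± 3.59 in the gene trap and 76.2% ± 4.92 in the parental line, limma adjusted p = 0.287). Zmat3-001 held 56.6% ± 3.20 against 74.3% ± 17.8 in ES cells (limma adjusted p = 0.478), with a spread in the parental line wider than the difference. Cdkn1a-001 held 89.7% ± 4.74 in md KO and 90.2% ± 6.95 in WT. Ei24-201 held 86.0% to 87.6% in all 4 groups. Bax and Sesn2 had 1 transcript each in the tables, and Phlda3-001 held over 98% in every group. Ccng1-001 held 83.9% ± 6.12 against 78.0% ± 1.98 in md cells and all of it in ES cells, and Trp53inp1-002 held 59.4% and 60.0% in the ES lines.

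The third comparison asked whether the RBM10 antibody recovered more crosslinks over these genes than IgG, in CPM, counts of crosslinks scaled to the library total. The measured values of Mdm2 and Bax were higher in each RBM10 library than in each IgG library, although the depth of IgG replicate 3 cannot show this for Bax, and Ccng1 was the only gene of the 10 called, on the lower side. Over all genes 37.4% of 9284 were called by edgeR's quasi-likelihood test, 20.4% higher and 17.0% lower, and 30.1% were higher in every RBM10 library. This test left out the pairing of RBM10 and IgG libraries. The edgeR values below do so too unless a replicate block is named. Of the 10 genes 8 passed the filter on low counts. Bbc3 and Trp53inp1 did not. So 1 of 8 called is below the background share, and their median difference was -0.36 against +0.05 over all genes tested.

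Mdm2 had 118, 103, 127 and 132 CPM in RBM10 replicates 1 to 4 and 80.8, 73.2, 29.1 and 0 in IgG replicates 1 to 4. The 0 in IgG replicate 4 allows up to 19.0 CPM, the worth of 3 crosslinks there. The log2 difference was +0.71 (SE 0.34, edgeR adjusted p = 0.114). Bax had 26.9, 29.9, 45.3 and 21.9 with RBM10 and 12.4, 19.9, 0 and 6.33 with IgG, where the 0 of replicate 3 allows up to 29.1 CPM, above RBM10 replicates 1 and 4, so the separation of Bax is not shown at this depth. Its difference was +0.84 (SE 0.38, edgeR adjusted p = 0.0967). With library totals alone in place of TMM factors, which moved the median of all genes from +0.05 to +0.32, both were called (Mdm2 adjusted p = 0.0350 and Bax 0.0371) and Ccng1 was not. Then 39.7% of genes were called, 2768 higher and 921 lower, against 1893 and 1579 with TMM factors.

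Ccng1 had 29.6, 24.9, 8.08 and 14.2 CPM with RBM10 and 38.3, 40.6, 19.4 and 31.6 with IgG. The 2 antibodies overlapped only through IgG replicate 3, which rests on 2 crosslinks. The log2 difference was -1.19 (SE 0.42, edgeR adjusted p = 0.0382). Each RBM10 replicate had its own IgG control, and with that replicate block the difference was -0.92 (edgeR adjusted p = 0.0725), which ends the call. It was also lost without RBM10 replicate 3 (adjusted p = 0.0601) or 4 (0.0850), and without IgG replicate 1 (0.111) or 2 (0.161).

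Sesn2 had 27.0 to 38.0 CPM with RBM10 and 17.6, 23.0, 38.8 and 0 with IgG. Its antibodies overlapped only through IgG replicate 3, which rests on 4 crosslinks. Cdkn1a had 33.2, 14.4, 13.7 and 14.2 with RBM10 and 26.9, 24.8, 9.71 and 0 with IgG, where the 9.71 rests on 1 crosslink. For both genes the 0 in IgG replicate 4 allows up to 19.0 CPM. Zmat3 had 41.3 to 71.0 with RBM10 and 38.0 to 88.1 with IgG. None of these differed by edgeR, with adjusted p of 0.342 for Sesn2, 0.417 for Cdkn1a and 0.106 for Zmat3.

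Ei24 lay at 21.9 to 27.8 CPM with RBM10 and at 6.33 to 48.5 with IgG. Phlda3 lay at 10.3 to 13.7 with RBM10 and at 0 to 25.3 with IgG. Bbc3 held 35 crosslinks in all with RBM10 and 24 with IgG, and Trp53inp1 held 48 and 23. IgG replicates 3 and 4 held 22 and 17 crosslinks over all 10 genes.

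**Figure D3:**
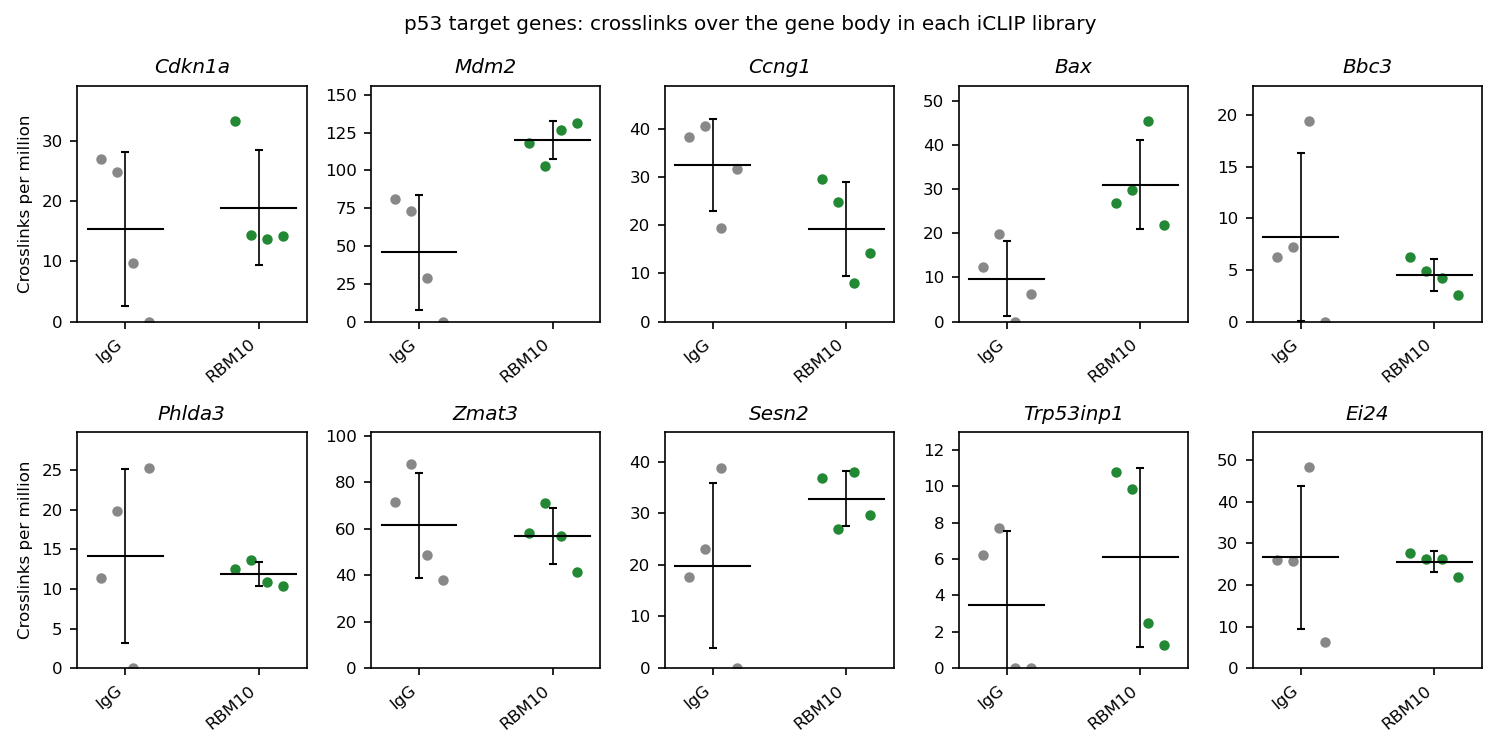
Crosslinks over the gene body in CPM, scaled to the library total (y axis, from 0) for each p53 target gene. Points are the 4 IgG and 4 RBM10 libraries, lines the mean and bars the SD, not drawn below 0. The RBM10 libraries of Mdm2 sit at 103 to 132, all above the IgG libraries, and those of Ccng1 sit mostly below them.

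Where the crosslinks lay within the genes differed between the antibodies. Over the 10 genes the RBM10 libraries held 2498 crosslinks, 74.4% of them in introns, and the IgG libraries held 1057, 44.9% of them in introns. Introns made up 76.9% of the bases. Within the last 100 nt before an exon lay 512 intronic crosslinks with RBM10 (27.6%) and 25 with IgG (5.26%), while that stretch made up 4.78% of the intron bases. Mdm2 held 247 of the 512 and Bax 74, so these genes weigh most in the pool. By gene the RBM10 share ranged from 0% in Phlda3, 9.89% in Cdkn1a and 15.2% in Zmat3 to 41.7% in Trp53inp1 and 44.6% in Bax. The stretch made up 6.32%, 1.33%, 2.17%, 2.39% and 10.2% of the intron bases of these genes, in that order. Ranking the genes by share is thus not ranking them relative to their bases. The share of Trp53inp1 rests on 24 intronic crosslinks. In Ccng1 the RBM10 share was 24.4%, beside 14.8% of its intron bases. Within the first 100 nt after an exon lay 218 intronic crosslinks with RBM10 (11.7%) and 35 with IgG (7.37%), beside 5.15% of the intron bases. Introns were taken as bases outside the exons of transcripts with a coding sequence, a choice made after seeing that retained-intron transcripts covered introns of Mdm2, and 327 of the 818 intronic RBM10 crosslinks of Mdm2 lay in exons of such noncoding transcripts.

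By library the share of intronic crosslinks in those last 100 nt was 22.4% (95% Wilson interval 17.8 to 27.7), 23.1% (19.9 to 26.6), 31.1% (27.9 to 34.4) and 34.7% (28.3 to 41.7) in RBM10 replicates 1 to 4. In IgG replicates 1 and 2 it was 7.89% (4.57 to 13.3) and 4.14% (2.44 to 6.95). IgG replicate 3 had 0 of 9 and IgG replicate 4 had no intronic crosslink in these genes. The intervals cover counting error only. No test was made, and each RBM10 interval lay above those of IgG replicates 1 and 2. Over 19516 protein-coding genes with introns the same share was 19.6% to 30.3% in the RBM10 libraries and 3.09% to 4.80% in the IgG libraries, beside 1.98% of their intron bases. The p53 target genes had similar shares of crosslinks and, at 4.78%, a larger share of such bases.

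The distance profile, which pools these genes and was not split by gene, had its peak 51 to 80 nt before the exon. In that stretch lay 349 RBM10 crosslinks and 8 IgG crosslinks, and in the last 10 nt before the exon 8 and 4. The crosslinked base in these genes was C in 29.5% to 40.8% of the RBM10 crosslinks and U in 36.3% to 47.9%. In IgG replicates 1 and 2 it was C in 13.6% and 14.2% and U in 57.8% and 55.4%. In IgG replicates 3 and 4, with only 22 and 17 crosslinks, it was C in 13.6% and 35.3% and U in 50% and 52.9%. The C share of IgG replicate 4 thus lay within the RBM10 range.

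**Figure D4:**
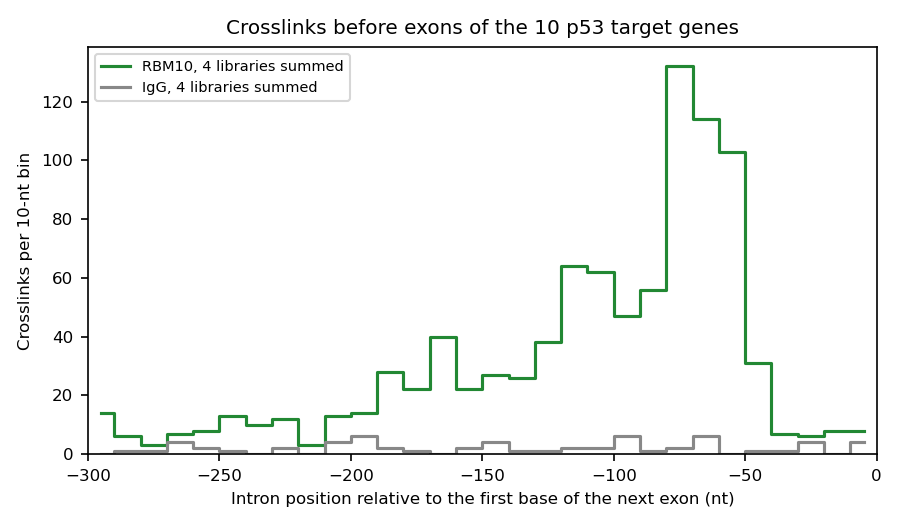
Crosslinks per 10-nt bin (y axis) in the introns of the 10 p53 target genes by distance to the first base of the next exon (x axis, nt, exon at the right). Lines are the sums over 4 RBM10 and 4 IgG libraries, not scaled for depth. RBM10 crosslinks peak at 71 to 80 nt before the exon with 132, where IgG has 2.

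Mdm2 carried 888 of these RBM10 crosslinks, 92.1% of them intronic. Its densest 30-nt window lay before exon 11, with 8, 11, 23 and 11 crosslinks in RBM10 replicates 1 to 4 and 0 with IgG, and its top position was 47 nt before the exon. The window before exon 4 held 4, 22, 26 and 0 with RBM10 and 0 with IgG, with the top position 72 nt before the exon. The window before exon 6 held 4, 11, 18 and 0 with RBM10 and 3 with IgG, with the top position 68 nt before the exon. The first of these windows was crosslinked in all 4 RBM10 libraries, and the other 2 were empty in replicate 4. Replicate 4 was the shallowest RBM10 library and held 102 crosslinks over the whole of Mdm2. The cause of this difference between replicates was not tested. The sequences printed above hold these windows. These windows and those of the other genes were picked by RBM10 crosslinks alone, so their low IgG counts are no test of binding.

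Bax carried 261 RBM10 crosslinks. Its densest window lay before exon 6, with 4, 16, 29 and 0 crosslinks in RBM10 replicates 1 to 4 and 0 with IgG, and its top position was 71 nt before the exon, within the CCCTTC in capitals above. The window before exon 2 held 4, 9, 7 and 0 with RBM10 and 0 with IgG. Another, before exon 5, held 2, 4, 7 and 1 with RBM10 and 0 with IgG. With bases outside every annotated exon alone counted, Bax differed by +2.35 between the antibodies (edgeR adjusted p = 0.0010) and Mdm2 by -0.01 (edgeR adjusted p = 0.977), with 46.6% of genes called. In IgG, 47.4% of the 57 Bax crosslinks lay in coding exons against 10.7% with RBM10.

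**Figure D5:**
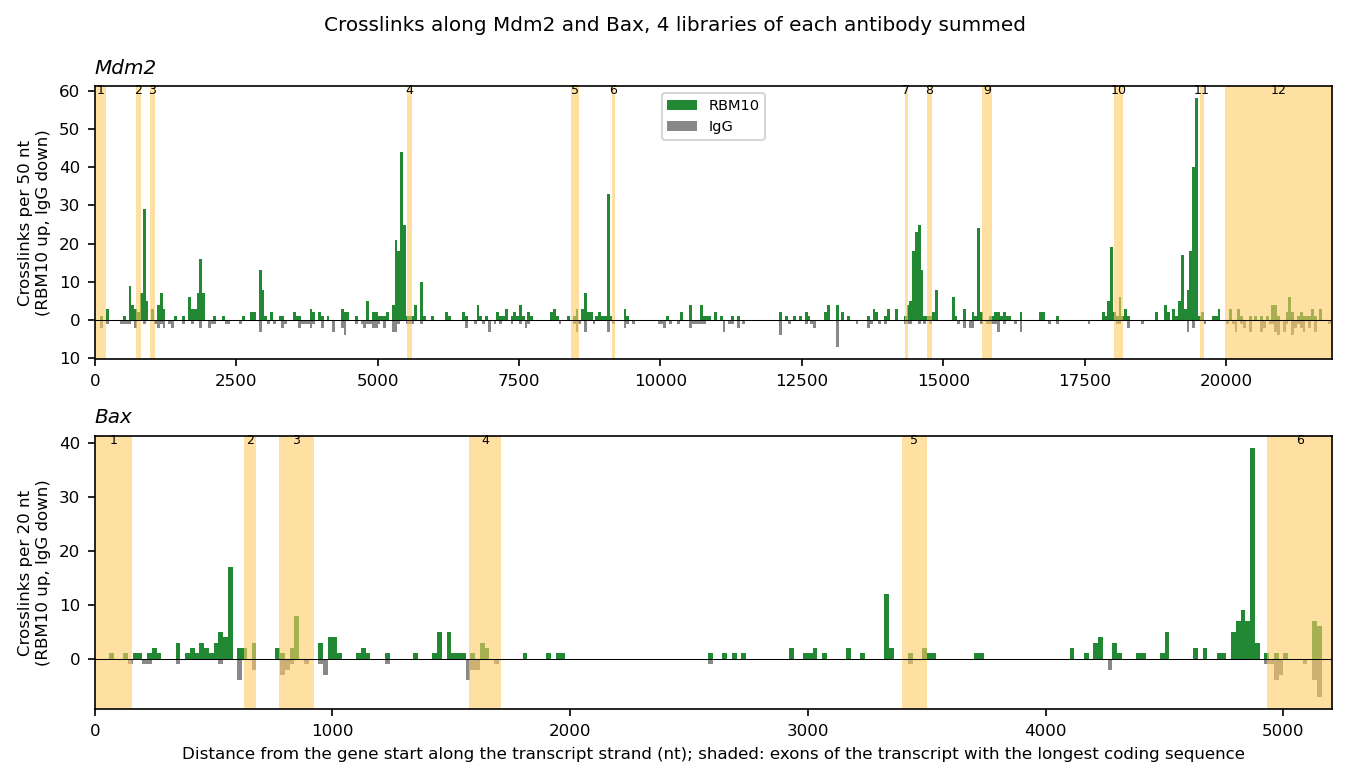
Crosslinks along Mdm2 (per 50 nt) and Bax (per 20 nt) against the distance from the start of the gene (x axis, nt). Green bars upward are the sum of 4 RBM10 libraries, grey bars downward that of 4 IgG libraries, and shaded bands are the numbered exons of the transcript with the longest coding sequence. RBM10 crosslinks stand just before exons 4, 6 and 11 of Mdm2 and exons 2, 5 and 6 of Bax.

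The other genes held fewer. The densest windows of Zmat3 (21 RBM10 crosslinks, 118 nt before exon 6), Sesn2 (18, 368 nt before exon 7) and Ei24 (12, 77 nt before exon 9) had 0, 1 and 0 IgG crosslinks. That of Sesn2 lay nearer to the exon upstream, 95 nt after exon 6. Cdkn1a had 11 RBM10 and 3 IgG crosslinks in a window 104 nt before exon 3, and 71.1% of its 128 RBM10 crosslinks were intronic. Ccng1 had 32.6% of its RBM10 crosslinks in introns and Phlda3, with 0 of them in the last 100 nt before an exon, 51.1%. In Phlda3 18 of the 47 intronic ones lay in the first 100 nt after an exon. Only 2 positions were crosslinked in all 4 RBM10 libraries, one in an intron of Mdm2 (chr10:117133224, 2 to 3 crosslinks in each library) and one in an intron of Zmat3 (chr3:32262849, 2 in each), both with 0 in IgG. Both were picked by the RBM10 libraries, so the 0 in IgG is no test either.

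Skipping of the exons after the crosslinked stretches could not be read from the transcripts listed. Every deposited transcript that spans the starts of Mdm2 exons 4 and 6 and Bax exons 2, 5 and 6 uses them, and 4 of 5 do so for Mdm2 exon 11. The other, Mdm2-009, is annotated as a retained intron and held 3.80% ± 0.944 of Mdm2 in md KO (SD, n = 4), 5.72% ± 3.24 in WT (n = 3), and 1.96% ± 0.410 and 2.94% ± 0.975 in the ES lines. Its share was too low for the test.

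The wider p53 pathway was read from 5 lists. In md cells none of their genes was called. Among 18 tested further targets of cell cycle and growth 10 had a difference above 0 (median +0.15), of 13 in cell death 8 (median +0.07) and of 7 in DNA repair 6 (median +0.20). Over all genes tested 52.1% lay above 0, with a median of +0.01. Of 17 regulators 9 lay above 0 (median +0.04), and of 21 cell cycle genes that fall when p53 acts 5 lay above 0 (median -0.11). The md and ES differences of Plk1, a mitotic kinase of that list, differed by -0.64 (limma adjusted p = 0.0368), and Plk1 was chosen after its values were seen. Plk1 was at 52.3 to 61.7 TPM in the clones, 73.4 to 76.7 TPM in WT, 108 to 123 TPM in the gene trap and 97.4 to 104 TPM in the parental line.

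The counts of called genes in the ES lists stand beside 12.3% over all genes and are near it. In ES cells 3 of 20 growth targets were called, 1 higher and 2 lower, and both lower ones are described here. Gdf15, a stress-induced secreted factor, was at 1.14, 0.22 and 0.30 TPM in the gene trap and 6.63, 7.14 and 2.74 TPM in the parental line, and fell by 2.03 (SE 0.35, limma adjusted p = 0.0244). Ddit4, an inhibitor of mTORC1, was at 10.4, 12.0 and 14.3 TPM against 26.2, 30.6 and 21.9 TPM and fell by 1.04 (SE 0.16, limma adjusted p = 0.0197).

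Of 13 cell death targets Trp53i11 was called (+0.70, SE 0.10, limma adjusted p = 0.0177), at 16.9 to 19.96 TPM against 10.4 to 11.8 TPM. None of the 7 repair genes was called. Of 18 genes for p53 and its regulators 2 were called. Cdkn2a, which encodes the Mdm2 inhibitor ARF and the kinase inhibitor p16, rose by 0.73 (SE 0.11, limma adjusted p = 0.0196), from 3.92 to 4.93 TPM to 7.49 to 8.53 TPM. Trp53rk, a kinase that can phosphorylate p53, rose by 0.69 (SE 0.17, limma adjusted p = 0.0479). Of the 21 cell cycle genes Ccne1, cyclin E1 (+1.17, limma adjusted p = 0.0434), and Cdc20, an activator of the anaphase-promoting complex (+0.44, limma adjusted p = 0.0439), rose.

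Trp53, the gene of p53 itself, was at 104, 113, 105 and 106 TPM in KO1 to KO4 and at 98.4 to 103 TPM in WT md cells (+0.08, SE 0.09, limma adjusted p = 0.871). In ES cells it was at 362 to 497 TPM in the gene trap and 337 to 361 TPM in the parental line (+0.34, SE 0.13, limma adjusted p = 0.119). Ppm1d, a phosphatase that turns p53 signalling off, differed by +0.19 in md cells (limma adjusted p = 0.791) and +0.18 in ES cells (limma adjusted p = 0.211). For Mdm4, a partner of Mdm2, 2 of 3 annotated transcripts were in the tables, listed at no more than 0.15 TPM in sum, so its level is not read here.

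In iCLIP the same lists held calls in both directions, beside 20.4% of all genes called higher and 17.0% lower, and the lists were not tested against that background. Higher with RBM10 were 4 of 12 growth targets (first Tsc2 and Plk2), 3 of 10 in cell death (Pidd1 and Tnfrsf10b first), 1 of 7 in repair (Ddb2) and 7 of 17 regulators (Usp7 and Trp53 first), and lower were 3, 1, 2 and 3. Trp53 differed by +0.88 (SE 0.22, edgeR adjusted p = 0.0079) and Mdm4 by +0.64 (SE 0.18, edgeR adjusted p = 0.0149), both higher with RBM10, and Ppm1d by -0.82 (SE 0.34, edgeR adjusted p = 0.0708). All the calls and values of this paragraph left out the pairing of RBM10 and IgG libraries. On the lower side stood Fbxw7 in growth, Eda2r in cell death, Mgmt and Rrm2b in repair, and Cdkn2a and Rpl5 among regulators. Of the 21 cell cycle genes 12 were higher and 0 lower, with Cdc25c and Mcm5 first.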

How the data were processed

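Per the labels, RNA was sequenced from polyA-selected TruSeq libraries, and iCLIP used ultraviolet crosslinking with rabbit IgG or an antibody to both isoforms of RBM10. The authors deposited TPM per transcript, 1 table for md and 1 for ES cells, each library summing to the same total, so the depth behind a TPM is unknown. The authors also deposited crosslink counts per nucleotide, on mm9 per the series' design text. The submitters' processing notes list mm9 and mm10. No source used here gives the aligner, the quantifier, the annotation release or the strand setting.

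TPM was summed by gene after joining 84877 of 100249 transcripts (84.7%) to the mm9 annotation. Unjoined transcripts are not in the sums. Genes at 1 TPM or more in 3 or more libraries were tested with limma 3.58.1 on log2(TPM + 1), a scale that understates changes of low genes. Crosslinks on the strand of each gene body were tested with edgeR 4.0.16 (TMM, filterByExpr, quasi-likelihood) in R 4.3.3. Adjusted p-values are Benjamini-Hochberg over all genes, with calls under 0.05. Transcript shares were tested with limma for mean shares of 5% to 95%. Windows of 30 nt were ranked by RBM10 crosslinks. The limma fits of KO against WT in md and ES cells and the edgeR test were tested on simulated data. Python 3.11.15, numpy 2.4.6, pandas 2.3.3 and matplotlib 3.10.9 were used.

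Each iCLIP replicate had its own control, per the labels, so these libraries are pairs. The main iCLIP test did not use the pairs, and the block on them was an alternative. Deviations of paired libraries correlated at -0.02 to 0.03. Floors are 3 crosslinks per library.

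All 10 genes are named. Of the other pathway lists, up to 4 called genes a list and comparison by lowest p are named in the RNA data, 2 a direction in iCLIP, and Trp53, Mdm4 and Ppm1d always. One gene that this rule names is not reported here. The members and lists were chosen with earlier results of these data known. Alternatives were another pseudocount, filters, normalisations, DESeq2 1.42.0, replicate blocks and leaving out replicates. Others were added after seeing the data and are named so.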

Additional observations from a re-analysis of the deposited data

Results flagged for a closer look

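The difference of Cdkn1a between KO and WT md cells exceeded that between gene trap and parental ES cells by 1.70 on the log2 scale (limma adjusted p = 0.0257). Cdkn1a was higher in 4 of 4 clones than in every WT md sample and lower in 3 of 3 gene trap samples than in every parental sample. Of all genes tested, 6.33% were higher in every clone and 14.5% lower in every gene trap sample. Cdkn1a was not called in md cells alone (limma adjusted p = 0.602). The call on the 1.70 was lost in several fits with 1 sample left out, as given above.

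In iCLIP, RBM10 replicate 1 held Cdkn1a crosslinks at 33.2 CPM, far above the 13.7 to 14.4 of the other 3 RBM10 libraries. Its gap to the nearest library was 0.964 of the whole range, above Dixon's critical value at 95% for 4 samples. Ei24 in KO2 was at 43.5 TPM, with the other clones at 38.8 to 39.4 TPM and a gap of 0.873 of the range. Of 30 groups of 4 samples looked at, 2 had such a sample, and chance flags about 1 in 20 groups.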

How the results depend on the processing

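In md cells 0 of the 10 genes were called under each alternative listed here but 1. The exon 9 clones alone against WT, added after seeing the data, gave 2 of 10 and 136 genes in all. The 2 genes called over the whole md table became 0 with a pseudocount of 0.1, with a 5 TPM filter and with the replicate block (which drops KO4), 6 with no filter, and 0 to 4 when 1 sample was left out. In ES cells 1576 genes and 2 members became 774 and 0 with no filter, 422 and 0 with the replicate block, and 21 to 3985 genes and 0 to 2 members with 1 sample left out. Without both gene trap replicate 1 and parental replicate 3, added after seeing the data, they were 5716 and 5. Nothing in the labels says that the replicate numbers pair the md or ES samples, so their block is given only here. Deviations of same-number samples correlated at -0.11 to -0.00 in md and -0.13 to 0.16 in ES cells. The iCLIP pairs correlated weakly too, so such values do not decide pairing. The test of the md difference against the ES difference called 0 to 1 members with 1 sample left out. In iCLIP 3472 genes became 1794 without IgG replicate 2 and 2299 without IgG replicate 1, within a range of 1794 to 4018 with 1 library left out. The 1 member called there became 0 with DESeq2 and with the replicate block of paired libraries. It became 2 with library size alone (both higher), with no filter (1 higher, 1 lower), with each position counted once and with pairs 1 and 2 alone (both lower), and 0 to 2 with 1 library left out. The cause was not tested. Member transcript shares gave 0 calls and exon 9 against exon 3 clones 0 members in every alternative run. No result changed direction among called values. The IgG libraries of 103017 and 157986 crosslinks limit what can be seen in iCLIP, where 1 crosslink weighs heavily.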
